A study of Mus musculus with 23 samples.

Results

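The 39 protein-coding mouse Hox genes of the clusters A to D were followed through 3′ tag counts of embryonic stem cells (ESCs) labelled as knockouts of the histone chaperone SET, treated with retinoic acid (RA), or carrying an inducible SETa. Members are the genes whose symbol is Hoxa, Hoxb, Hoxc or Hoxd and a number, 39 of 55573 genes in the count files: 11 in HoxA (chr6:52155590-52260880), 10 in HoxB (chr11:96194316-96368256), 9 in HoxC (chr15:102921103-103036852) and 9 in HoxD (chr2:74668310-74765142, all GRCm38). R1 ESCs, all grown on embryonic fibroblast feeders in serum with LIF, were labelled wild type (WT) or SET-/- (KO, lines KO1 and KO2) in separately titled sets 1 and 2. Set 1 held 2 WT (1a, 1b), 2 KO1 (1c, 1d) and 2 KO2 (1e, 1f) samples. Set 2 held 2 WT (2a, 2b), 2 KO1 (2c, 2d) and 2 KO2 (2e, 2f) samples without RA, 1 WT sample after 4 d of RA (2g) and 2 KO samples after 4 d of RA (2h, 2i), both titled KO1. The count file of 2i is named like those of KO2 and not of KO1, so its line is uncertain. KH2 ESCs carrying HA-tagged SETa under doxycycline (Dox) control were sampled without Dox (2 samples) and after 24 h of 1 μg/mL Dox (2 samples). The labels do not state that replicates were separate cultures, so p-values measure the spread between these samples only, and the spread of WT after RA was taken from the other groups. The series asks, by its title and design, how SET bears on ESC differentiation.

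Hox genes encode homeodomain transcription factors that give cells of the embryo their position along the head to tail axis. Within a cluster the genes are numbered by paralogue group, and the low-numbered genes at the 3′ end are activated earlier and reach further towards the head than the high-numbered genes at the 5′ end. In ESCs the clusters are known to be held silent by Polycomb complexes, and RA acting through its receptors is known to open them, beginning at the 3′ end. Feeder fibroblasts, made from embryos, also express Hox genes.

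Promoter sequences were looked up for the paralogues at issue below. The RefSeq table (GRCm38.p6) held 24 promoter windows for 22 of the 39 members, each from 250 bases before to 50 bases after a gene's start. A direct repeat of the RA receptor core site with a spacer of 5 bases (DR5), searched on both strands, lay in 0.39% of all 32851 windows and in 0 of the 24 Hox windows, which says only that those letters are not in these windows. The single core site in the form AGGTCA, either strand, lay in 16.3% of all windows and in those of 7 Hox genes, among them Hoxb4, Hoxc4 and Hoxd4. The DR5 search also took other forms of the core, such as AGTTCA in the repeats printed below. The shares of DR5 and of AGGTCA therefore rest on different letters. The letters TGATNNAT, a form of the joint Pbx and Hox site that can overlap other homeodomain sites, lay in 8.85% of all windows and in those of 4 Hox genes, Hoxb1 included. A match is a description of the letters and not a binding site. The 250 bases before the start are given 5′ to 3′ on the gene's strand for the 3 paralogue group 4 genes with a core site, at chr11:96318017-96318266 (+), chr15:103034145-103034394 (+) and chr2:74721728-74721977 (+), since Hoxd4 carries the genotype differences below, with the core site in capitals. Its reverse complement stands in all 3, starting 81, 146 and 145 bases before the start. The Hoxb1 promoter, chr11:96365508-96365757 (+), has its TGATNNAT match in capitals. For contrast, 37 bases around the DR5 repeat (capitals) of the RA target genes Rarb, chr14:16575503-16575539 (-), and Cyp26a1, chr19:37697766-37697802 (+), follow.
Hoxb4: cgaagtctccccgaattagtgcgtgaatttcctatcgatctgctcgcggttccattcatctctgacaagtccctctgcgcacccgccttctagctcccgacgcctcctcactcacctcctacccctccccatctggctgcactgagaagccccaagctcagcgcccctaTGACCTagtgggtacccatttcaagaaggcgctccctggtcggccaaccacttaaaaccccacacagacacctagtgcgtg
Hoxc4: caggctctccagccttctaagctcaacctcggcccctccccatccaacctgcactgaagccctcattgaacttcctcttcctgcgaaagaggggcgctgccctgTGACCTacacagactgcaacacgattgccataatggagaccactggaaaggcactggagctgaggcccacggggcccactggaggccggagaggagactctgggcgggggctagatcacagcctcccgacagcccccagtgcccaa
Hoxd4: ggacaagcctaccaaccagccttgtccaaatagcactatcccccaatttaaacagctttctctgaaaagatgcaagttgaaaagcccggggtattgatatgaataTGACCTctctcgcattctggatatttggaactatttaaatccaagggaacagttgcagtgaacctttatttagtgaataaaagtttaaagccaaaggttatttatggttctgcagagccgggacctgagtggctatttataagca
Hoxb1: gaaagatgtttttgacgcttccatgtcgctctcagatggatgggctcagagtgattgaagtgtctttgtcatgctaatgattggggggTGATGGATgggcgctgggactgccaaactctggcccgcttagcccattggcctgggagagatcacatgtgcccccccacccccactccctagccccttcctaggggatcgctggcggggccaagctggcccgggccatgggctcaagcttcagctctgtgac
Rarb: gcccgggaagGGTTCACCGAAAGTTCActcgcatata
Cyp26a1: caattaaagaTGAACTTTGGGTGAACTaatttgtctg

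Levels are counts per 1000000 assigned counts, scaled by TMM (CPM). They count 3′ tags and do not scale with transcript length, so levels of different genes compare tags. Samples held 806412 to 1445013 assigned counts (set 1), 2833064 to 10217040 (set 2 before RA), 3904924 to 5047363 (with RA) and 4848478 to 6472695 (KH2 line). Set, the targeted gene, was at 977 and 1020.0 CPM in set 1 WT against 17.3 to 25.9 CPM in set 1 KO. In set 2 it was at 1191 and 1401 CPM in WT but still at 272 to 562 CPM in KO, and after RA at 559 CPM in WT against 185 and 271 CPM in KO. KO below is the name the labels give, and set 2 KO samples, which carry all RA comparisons, were not without Set tags. The 12 ESC markers summed to 1857 to 5396 CPM in all samples without RA and to 303 to 360 CPM after RA. Overlap between genes bears on the members directly, because reads overlapping several genes were not counted. Of the 39 members, 16 share exonic bases with another gene, and for Hoxa3, Hoxa7, Hoxb2 and Hoxb3 over 90% of the last 500 exonic bases, where 3′ tags fall, are shared with an antisense or overlapping transcript. Their levels are therefore uncertain, as are those of Hoxa4 (51.0% of these bases shared) and of Hoxd3 and Hoxd4, which share exonic bases with each other.

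Without RA the Hox clusters were close to silent in all ESC groups. The 39 members summed to 20.9 and 18.1 CPM in set 1 WT, to 40.9, 35.4, 31.3 and 29.0 CPM in set 1 KO, to 78.2 and 80.4 CPM in set 2 WT and to 109.6, 115, 116 and 88.6 CPM in set 2 KO. KH2 cells held 30.9 and 31.3 CPM without and 31.4 and 36.3 CPM with Dox. In set 1 these sums rest on 21 to 51 counts per sample, and 23 members were at 0 counts in both WT samples. The KO samples lay above the WT samples in both sets, by 1.75 times in set 1 and 1.35 times in set 2 on the group means, and no test was made of these sums. By cluster this order of the means held for all but HoxB in set 1, at 0.799 times. It did not hold for every paralogue group, as group 5 was at 0.969 times in set 1 and 0.86 times in set 2. In set 2 the libraries fell into 2 subsets along the first principal component, and levels moved with them. The sums were 65.3 to 73.1 CPM in WT and 76.2 to 102 CPM in KO libraries of subset A, and 87.5 to 102 CPM in WT and 109 to 137 CPM in KO libraries of subset B. The part of the subsets in the level was not tested. Line, set and depth cannot be told apart in what made up these reads. Hoxc13, a gene of hair and nail formation, stood at 5.54 and 7.01 CPM in KH2 cells and at 5.83 and 6.45 CPM with Dox, against 1.61 and 0.834 CPM in set 2 WT, 0.331 to 4.80 CPM in set 2 KO, 2.51 and 2.58 CPM in set 1 WT and 2.47 to 8.85 CPM in set 1 KO. Paralogue groups 9 to 13 gave 53.5% of the Hox counts in KH2 cells (95% exact binomial interval 47.5 to 59.3%, counting error only) and 29.2% in set 2 WT (26.4 to 32.1%). In set 1 they gave 56.5% in WT (41.1 to 71.1%, 46 counts) and 37.2% in KO (30.0 to 44.9%), so the interval of set 1 WT holds the KH2 share.

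**Figure D1:**
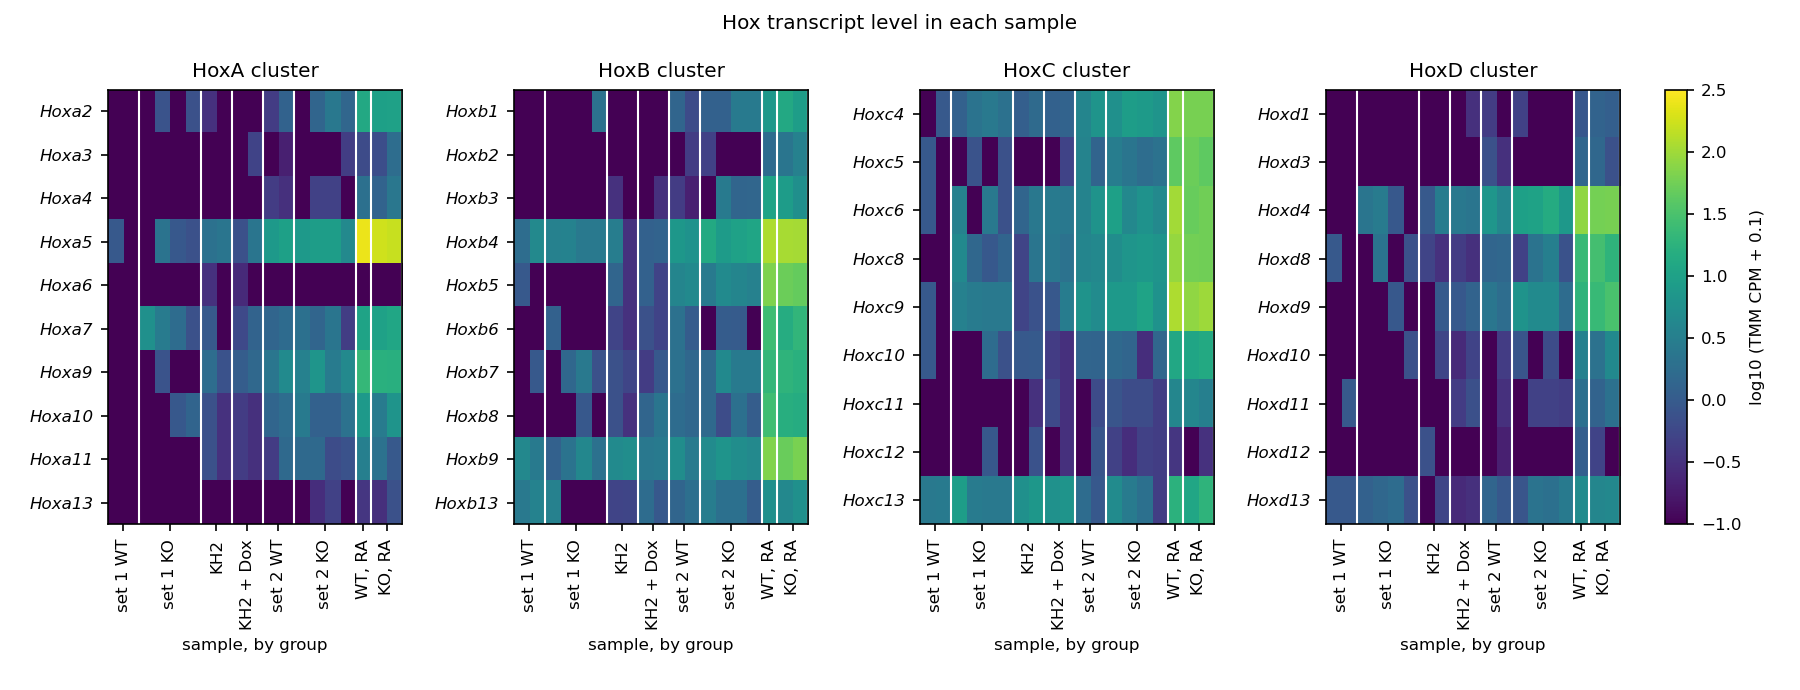
Level of Hox genes (rows, by cluster and paralogue group) in each of the 19 samples (columns, by group), as log10 of TMM-scaled CPM plus 0.1. The 3 samples after RA are the bright columns at the right of each panel, with Hoxa5 at 252 CPM in WT the highest value.

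After 4 d of RA, the only time sampled, all clusters were higher than without RA. The Hox sum reached 1298 CPM in WT and 1008 and 1036 CPM in KO, which was 16.4 times the untreated level in WT and 9.53 times in KO. HoxA went from 17.1 and 26.4 CPM to 349 CPM in WT, and from 25.1, 30.1, 24.8 and 21.5 CPM to 274 and 277 CPM in KO. HoxB went from 24.6 and 19.4 CPM to 353 CPM in WT, and from 28.0, 30.8, 30.0 and 27.4 CPM to 289 and 291 CPM in KO. HoxC, the highest of the 4 after RA, went from 23.9 and 26.1 CPM to 458 CPM in WT and from 38.4, 34.3, 36.4 and 27.1 CPM to 326 and 347 CPM in KO. HoxD was lowest, with 12.6 and 8.65 CPM going to 138 CPM in WT and 18.1, 19.5, 24.8 and 12.6 CPM going to 119.7 and 121 CPM in KO. In each cluster the samples with RA lay above all samples without it, and the clusters differed less in their ratio (13 to 18.3 times in WT, 6.43 to 10.8 times in KO) than in their level.

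**Figure D2:**
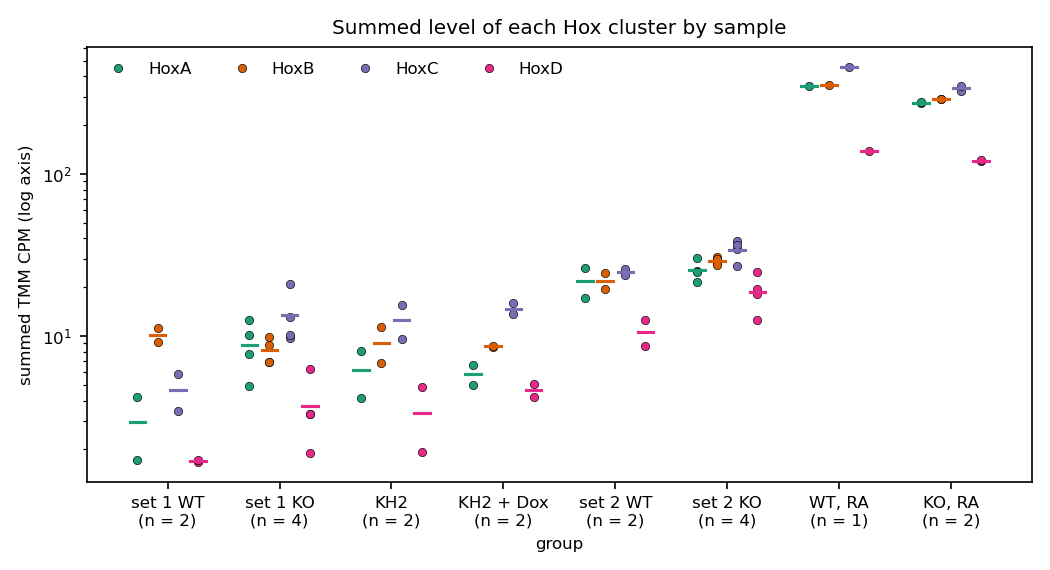
Summed TMM-scaled CPM of each Hox cluster (log axis) in every sample, by group; points are samples and bars are group means. The samples after RA lie at 119.7 CPM or higher and all other samples at 38.4 CPM or lower.

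Of the 39 members, 31 passed the low-count filter in the fit of set 2. In edgeR's quasi-likelihood test 28 were called higher and 0 lower after RA in WT (adjusted p under 0.05, Benjamini-Hochberg), where 24.8% of all 14659 genes were called higher and 22.5% lower. In KO 30 were called higher and 0 lower, against 28.3% and 26.8% of genes. Members that passed only because RA raised them had to differ, so these counts over the tested members support nothing. The 15 such members were Hoxa2, Hoxa4, Hoxa7, Hoxa10, Hoxa11, Hoxb2, Hoxb3, Hoxb6, Hoxb8, Hoxb13, Hoxc10, Hoxc11, Hoxd8, Hoxd10 and Hoxd13. For these, the rises and the separation of RA from untreated samples given below are descriptions only. The 16 members that pass the filter on the untreated samples alone do not have this limit. All 16 were called higher in WT (log2 fold change 2.42 to 4.77) and all 16 in KO (1.91 to 4.43), against 25% and 27.9% of the 12681 genes that pass likewise. Bulk counts cannot tell more cells expressing a gene from more RNA per cell.

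Fibroblast markers rose with the Hox genes and their part in the rise was not tested. The 20 markers summed to 534 and 551 CPM in set 2 WT, 556 to 809 CPM in set 2 KO, 1961 CPM in WT after RA and 1919 and 2134 CPM in KO after RA. Of 19 tested, 15 were called higher after RA in WT and 16 in KO by edgeR, and 1, Col6a3, was called lower in KO (log2 -1.62). Col1a1, a collagen of fibroblasts, went from 26.8 and 35.1 CPM to 385 CPM in WT. KH2 cells without Dox reached a like marker sum, 1926 and 1792 CPM, and Col1a1 at 504 and 566 CPM, with a Hox sum of 30.9 and 31.3 CPM. Col3a1, another fibroblast collagen, was at 22.8 and 24.3 CPM in KH2 cells and at 117 to 145 CPM after RA. KH2 is another ESC line, so like marker sums need not stand for like cells, and what made up the sums was not tested. Of 11 tested neural markers 3 were called higher and 3 lower in WT, and 4 higher and 5 lower in KO. In WT Nes (log2 2.80), Dcx (2.915) and Pax6 (1.33) rose, and Stmn2 (-2.73), Elavl3 (-2.26) and Nefl (-1.07) fell. Tubb3 was at 86.5 and 93.0 CPM before and 113 CPM after RA in WT, and was not called there (log2 0.33, adjusted p = 0.217, edgeR). Markers of extraembryonic endoderm summed to 4513 CPM in WT and 6402 and 6438 CPM in KO after RA, against 1278 and 1289 CPM and 1945 to 2379 CPM before. By edgeR 7 of the 13 tested were called higher in WT and 12 in KO, and 0 lower. Gata4, Sox7, Sox17 and Foxa2 were among those not called in WT.

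**Figure D3:**
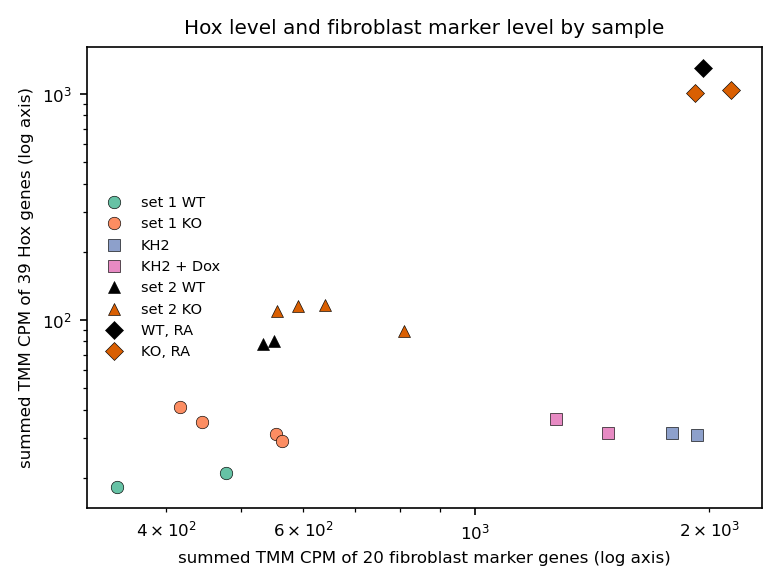
Summed CPM of the 39 Hox genes against summed CPM of 20 fibroblast marker genes, both on log axes, 1 point per sample. KH2 samples without Dox (1792 and 1926 CPM of markers) and samples after RA (1919 to 2134 CPM) overlap nearly on the horizontal axis and lie far apart on the vertical axis. KH2 is another ESC line, and what made up the marker sums was not tested.

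Paralogue groups 1 to 3 hold the genes of the hindbrain. Hoxb1, which sets the identity of a single hindbrain segment, was at 1.29 and 0.521 CPM in WT, 1.11, 1.11, 2.58 and 2.64 CPM in KO, 7.33 CPM in WT after RA and 12.96 and 8.64 CPM in KO after RA. All 3 RA samples of Hoxb1 lay above all untreated set 2 samples, and it rose by log2 3.26 in WT and 2.62 in KO (edgeR). Hoxa2, the selector of the second pharyngeal arch, was at 0.323 and 1.15 CPM in WT, 0, 1.3, 2.39 and 1.32 CPM in KO, 12.8 CPM in WT after RA and 9.77 and 10.1 CPM in KO after RA. The RA and untreated samples did not overlap, and the gene rose by log2 3.76 in WT and 2.89 in KO. Like Hoxb2 and Hoxb3 below, Hoxa2 was tested only through its RA samples. Hoxb3, with nearly all of its 3′ end shared, was at 0.323 and 0.104 CPM in WT, 0, 2.6, 1.29 and 1.32 CPM in KO, 10.7 CPM in WT after RA and 8.57 and 5.48 CPM in KO after RA. Its untreated WT level is 2 counts, so the ratio of 68.1 in WT has a 95% counting interval of 17.7 to 582, beside 4.68 (2.93 to 7.73) in KO. Hoxb2 was at 0 and 0.313 CPM in WT, 0.369, 0, 0 and 0 CPM in KO, 1.57 CPM in WT after RA and 2.19 and 3.37 CPM in KO after RA. It was called in KO only, where 1 untreated count gives a ratio of 45.8 (7.55 to 1880), and the ratio in WT was 6.65 (1.42 to 41.1). The sum of these 3 paralogue groups rose 10.2 times in WT and 7.43 times in KO.

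Paralogue groups 4 to 8, which pattern the neck and upper trunk, gave 72.0% of the Hox counts in WT after RA and 61.1% before (95% exact binomial intervals 70.8 to 73.3% and 58.1 to 64.2%), and their sum rose 19.1 times in WT and 11.2 times in KO. Hoxa5, needed for lung and the border of neck and thorax, was at 7.75 and 9.79 CPM in WT, 7.75, 8.72, 8.83 and 4.3 CPM in KO, 252 CPM in WT after RA and 179 and 159 CPM in KO after RA. It had the highest level of all members after RA and rose by log2 4.77 ± 0.21 in WT and 4.42 ± 0.16 in KO (adjusted p = 2.91e-16 and 2.36e-18, edgeR). Hoxb4, also known from blood stem cells, was at 7.11 and 5.94 CPM in WT, 13.3, 8.35, 9.94 and 11.2 CPM in KO, 118 CPM in WT after RA and 110.3 and 108 CPM in KO after RA. Hoxc4 was at 3.88 and 6.36 CPM in WT, 5.53, 8.91, 8.1 and 6.28 CPM in KO, 70.4 CPM in WT after RA and 61.0 and 60.1 CPM in KO after RA. Hoxd4, a direct RA target in the hindbrain, was at 6.78 and 3.96 CPM in WT, 9.59, 10.4, 14.3 and 7.27 CPM in KO, 82.8 CPM in WT after RA and 58.0 and 59.7 CPM in KO after RA. These 3 paralogues, whose promoters are printed above, rose in WT by log2 4.21, 3.64 and 4.08 and in KO by 3.36, 2.98 and 2.42. Hoxa4 was at 0.323 and 0.208 CPM in WT, 0, 0.371, 0.368 and 0 CPM in KO, 1.83 CPM in WT after RA and 1.2 and 2.32 CPM in KO after RA. Here 3 untreated WT counts give a ratio of 7.76 (1.77 to 46.5), and the gene was called in KO only.

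In the other central members all RA samples likewise lay above all untreated set 2 samples. The share of all genes that separate so was not counted. Hoxb6, Hoxa7, Hoxb8 and Hoxd8 were tested only through their RA samples, so their separation supports nothing. Hoxb5 was at 3.88 and 4.48 CPM in WT, 2.58, 4.64, 3.87 and 3.31 CPM in KO, 67.0 CPM in WT after RA and 52.5 and 46.6 CPM in KO after RA. Hoxc5 was at 3.55 and 1.25 CPM in WT, 2.95, 2.23, 1.66 and 1.98 CPM in KO, 42.4 CPM in WT after RA and 50.9 and 42.8 CPM in KO after RA. For these group 5 genes the change in KO (log2 3.67 and 4.43) was near that in WT (3.94 and 4.46). Hoxb6 was at 1.94 and 0.938 CPM in WT, 0, 0.928, 0.92 and 0 CPM in KO, 25.9 CPM in WT after RA and 14.4 and 19.8 CPM in KO after RA. Hoxc6, which marks motor neurons at forelimb level, was at 3.55 and 6.15 CPM in WT, 9.59, 4.27, 5.89 and 4.3 CPM in KO, 103 CPM in WT after RA and 48.1 and 55.5 CPM in KO after RA. After RA both KO samples of Hoxc6 lay far below the WT sample. Hoxa7 was at 1.29 and 1.56 CPM in WT, 1.84, 1.3, 2.21 and 0.331 CPM in KO, 10.5 CPM in WT after RA and 9.97 and 11.8 CPM in KO after RA. Hoxb7 was at 1.94 and 1.35 CPM in WT, 1.48, 4.45, 2.58 and 2.64 CPM in KO, 20.4 CPM in WT after RA and 18.6 and 16.7 CPM in KO after RA. These thoracic-level genes rose by log2 2.79 and 3.71 in WT and by 2.81 and 2.53 in KO. Hoxb8 was at 1.61 and 1.35 CPM in WT, 1.48, 0.557, 1.84 and 0.992 CPM in KO, 26.97 CPM in WT after RA and 15.6 and 14.6 CPM in KO after RA. Hoxc8, a gene of brachial spinal cord and thoracic vertebrae, was at 3.88 and 4.17 CPM in WT, 5.17, 6.68, 7.18 and 6.28 CPM in KO, 89.5 CPM in WT after RA and 56.0 and 55.5 CPM in KO after RA. Hoxd8 was at 1.29 and 1.35 CPM in WT, 0.369, 2.04, 3.13 and 0.661 CPM in KO, 23.6 CPM in WT after RA and 28.7 and 18.6 CPM in KO after RA. They rose by log2 4.20, 4.43 and 4.10 in WT and by 3.64, 3.07 and 3.68 in KO. Hoxb6 and Hoxc6 rose by log2 4.37 and 4.25 in WT and by 4.75 and 3.13 in KO.

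Paralogue groups 9 to 13, which pattern lower trunk, limbs and tail, were led after RA by the group 9 genes, and their sum rose 12.5 times in WT and 7.26 times in KO. Hoxa9, known from blood progenitors, was at 2.26 and 4.69 CPM in WT, 3.32, 6.68, 2.76 and 4.3 CPM in KO, 21.2 CPM in WT after RA and 16.6 and 16.2 CPM in KO after RA. Hoxb9 was at 5.17 and 2.6 CPM in WT, 4.8, 6.31, 5.15 and 4.3 CPM in KO, 69.1 CPM in WT after RA and 49.7 and 62.4 CPM in KO after RA. Hoxc9, which sets thoracic motor neuron identity, was at 6.14 and 4.79 CPM in WT, 7.75, 7.42, 10.7 and 5.95 CPM in KO, 118 CPM in WT after RA and 83.0 and 98.5 CPM in KO after RA. Hoxc9 rose by log2 4.49 ± 0.25 in WT and 3.44 ± 0.17 in KO (adjusted p = 2.61e-14 and 1.90e-15, edgeR), Hoxb9 by 4.34 and 3.37, and Hoxa9 by 2.42 and 1.91. Hoxd9 was at 2.26 and 1.67 CPM in WT, 6.27, 4.64, 4.6 and 1.65 CPM in KO, 18.6 CPM in WT after RA and 22.7 and 30.8 CPM in KO after RA. It rose by log2 3.31 in WT and 2.61 in KO, with no overlap between RA and untreated samples. Hoxa10 was at 1.29 and 1.67 CPM in WT, 2.58, 1.11, 1.1 and 1.98 CPM in KO, 7.59 CPM in WT after RA and 2.79 and 6.33 CPM in KO after RA. Hoxc10 was at 1.29 and 1.25 CPM in WT, 1.48, 1.3, 0.184 and 1.32 CPM in KO, 12.3 CPM in WT after RA and 11.2 and 13.1 CPM in KO after RA. Hoxd10 was at 0 and 0.313 CPM in WT, 0.738, 0, 0.552 and 0 CPM in KO, 3.4 CPM in WT after RA and 1.99 and 4.43 CPM in KO after RA. These group 10 genes, which suppress ribs at the lumbar level, rose by log2 2.26 and 3.25 in WT and 1.5 and 3.66 in KO for Hoxa10 and Hoxc10. Hoxd10 had 3 untreated WT counts and a ratio of 14.4 (3.96 to 78.8), beside log2 3.28 in KO. Hoxc11 was at 0 and 0.521 CPM in WT, 0.738, 0.557, 0.552 and 0.331 CPM in KO, 3.93 CPM in WT after RA and 3.99 and 3.16 CPM in KO after RA. It rose by log2 3.28 in WT and 2.64 in KO.

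Hoxa11, Hoxb13 and Hoxd13 had small changes, and Hoxc13 a large one. Hoxb13, a gene of tail and prostate, was at 1.29 and 1.77 CPM in WT, 2.95, 1.86, 1.84 and 0.992 CPM in KO, 5.5 CPM in WT after RA and 4.19 and 5.69 CPM in KO after RA. Hoxd13, which shapes digits, was at 1.29 and 0.834 CPM in WT, 0.738, 2.04, 1.84 and 2.64 CPM in KO, 4.71 CPM in WT after RA and 3.99 and 4.22 CPM in KO after RA. They rose by log2 1.73 and 2.24 in WT and by 1.37 and 1.12 in KO. Hoxc13 was at 1.61 and 0.834 CPM in WT, 4.8, 2.78, 1.84 and 0.331 CPM in KO, 17.8 CPM in WT after RA and 11.6 and 18.6 CPM in KO after RA. Hoxc13 rose by log2 4.04 ± 0.52 in WT and 2.77 ± 0.35 in KO. Several calls at this end rested on single samples. Hoxb13 lost its call in WT without 2a (adjusted p = 0.0526, edgeR) or 2b (0.061), and Hoxd13 without 2b (0.115). In KO Hoxd13 lost it without 2c (0.101), 2e (0.113), 2h (0.134) or 2i (0.166), Hoxa10 without 2d (0.058) or 2i (0.350), and Hoxd10 (0.0647) and Hoxb13 (0.120) without 2i, all in edgeR. The DESeq2 Wald test did not call Hoxb13 or Hoxd13 in either genotype, nor Hoxa4 or Hoxa10 in KO. Hoxa11, a gene of kidney and forelimb, was tested and called in neither genotype, at 0.323 and 1.46 CPM in WT and 3.14 CPM after RA (log2 1.49 ± 0.85, adjusted p = 0.154, edgeR) and at 0.552 to 1.49 CPM in KO and 1.99 and 0.843 CPM after RA (0.56 ± 0.71, adjusted p = 0.53).

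The 8 members not tested were Hoxa3, Hoxa6, Hoxa13, Hoxc12, Hoxd1, Hoxd3, Hoxd11 and Hoxd12. None exceeded 1.90 CPM in any set 2 sample. Hoxa6 had 0 counts in all set 2 samples and Hoxc12 had 1 count in WT after RA against 7 before. Hoxd11 had 7 counts after and 2 before RA in WT, a ratio of 11.6 (95% counting interval 2.21 to 115), and 15 against 5 in KO, a ratio of 5.09 (1.76 to 17.9). Hoxd3 had 10 counts in KO after RA and 0 before, at least 5.66-fold higher against a floor of 3 counts over the untreated group, and 5 against 4 counts in WT. Hoxd1, a gene of sensory neurons for pain, had 11 counts against 1 in KO, a ratio of 18.7 (2.71 to 803), as had Hoxa3, a gene of thymus and parathyroid. The intervals cover counting error only.

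In the 16 members that pass the filter untreated, the log2 RA change and the paralogue number had a Spearman's rho of 0.20 in WT and -0.06 in KO, as a description over genes that share samples and are not independent. Over all 31 tested members rho was -0.28 and -0.31, but 15 of these were tested only through their RA samples, so that value is not read as an order. By summed level, paralogue group 5 rose most among groups with over 10 CPM after RA (23.5 times in WT, 20.1 times in KO) and group 13 least (7.41 and 3.89 times).

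**Figure D4:**
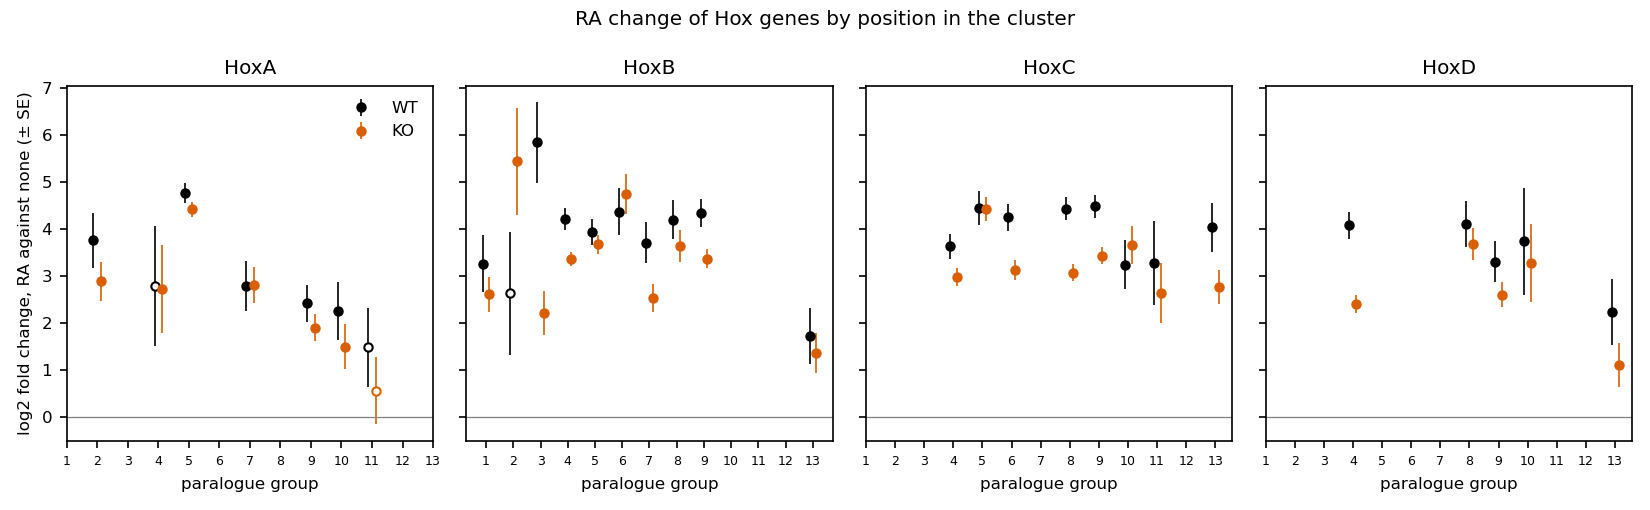
Log2 fold change after RA (± SE) of tested Hox genes against paralogue group, in 1 panel per cluster, for WT (black) and KO (orange); open points were not called. HoxA falls from Hoxa5 at 4.77 towards Hoxa11 at 1.49 in WT, where several points were tested only through their RA samples, and KO points mostly lie under the WT points.

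No member was called between KO and WT after RA. Of 31 tested members 0 were called by edgeR, where 0.396% of all genes were called, and 6 had an unadjusted p under 0.05 against 6.34% of genes. The log2 differences (KO minus WT) ran from -1.14 to 0.79, and of the 16 members that pass the filter untreated 12 were below 0, as were 51.4% of the genes that pass likewise. All of them share the single WT RA sample. Hoxc6 came closest, at 103 CPM in WT against 48.1 and 55.5 CPM in KO (log2 -1.02 ± 0.24, adjusted p = 0.0522, edgeR). It was called lower without the filter (as were 0.0833% of genes there), with every untreated sample left out in turn (adjusted p from 0.0179 to 0.0475) and in the fit with a replicate block (0.022). Hoxa5 was at 252 CPM against 179 and 159 CPM (log2 -0.59 ± 0.17, adjusted p = 0.234, edgeR) and was called without 2e (0.047) or 2f (0.0459). Hoxc8 was at 89.5 CPM against 56.0 and 55.5 CPM (log2 -0.70 ± 0.20, adjusted p = 0.226, edgeR). For Hoxc6 and Hoxa5, the fits without an untreated sample keep the same RA samples, which alone make this contrast. They say nothing of how far it rests on a single RA sample. The DESeq2 Wald test called 0 members too. Of the markers, 7 of 13 tested for extraembryonic endoderm were called higher in KO after RA and 0 of 19 for fibroblasts were called, by edgeR, and their part in the Hox levels was not tested.

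The RA by genotype difference, the RA change in KO minus that in WT, was called for 2 of 31 members, Hoxd4 and Hoxc8, both lower in KO, where edgeR called 1.09% of genes and 0.744% in that direction. Hoxd4 rose from 6.78 and 3.96 CPM to 82.8 CPM in WT and from 9.59, 10.4, 14.3 and 7.27 CPM to 58.0 and 59.7 CPM in KO (log2 difference -1.67 ± 0.36, adjusted p = 0.0178, edgeR). The KO samples lay above WT before RA and below it after RA. Hoxc8 rose from 3.88 and 4.17 CPM to 89.5 CPM in WT and from 5.17, 6.68, 7.18 and 6.28 CPM to 56.0 and 55.5 CPM in KO (-1.36 ± 0.33, adjusted p = 0.0369). It showed the same order of samples. Untreated levels of both genes moved with the library subsets. WT libraries of subsets A and B were at 2.81 to 2.90 and 7.50 to 9.99 CPM for Hoxd4. For Hoxc8 they were at 2.81 to 3.55 and 4.70 to 6.09 CPM. Subset A gave 7941952 counts of WT sample 2b and subset B 2275088. KO sample 2c was all of subset B and KO sample 2f all of subset A. The part of the subsets in the difference was not tested. Both calls were lost without 2b, 2e, 2h or 2i (adjusted p from 0.054 to 0.438 for Hoxd4 and from 0.062 to 0.275 for Hoxc8, edgeR), and that of Hoxc8 also without 2a (0.0842) or 2d (0.106). Both were lost with each library as its own sample (0.601 and 0.514, edgeR), as they were in the DESeq2 Wald test (0.056 and 0.113), and with KO1 alone as the untreated KO only Hoxd4 was called, a fit that matches lines only if 2i is KO1. The direction held in each of these. Of the 16 members that pass the filter untreated, 16 differences were below 0, as were 50.6% of the 12681 genes that pass likewise, with a median of -0.78 against -0.01. All of these share the single WT RA sample. ESC markers moved with this difference: 2 of 12 were called higher, Klf4 (log2 1.69) and Utf1 (1.45), and 0 lower, with a median of 0.84, while 0 of 19 tested fibroblast markers were called. Their part in the Hox differences was not tested. Hoxb3 (-3.63) has 2 untreated WT counts behind it and was called without the filter (0.0412, where 0.67% of genes were called lower) and without 2c (0.0421), and Hoxc9 was called without 2f (0.0232, edgeR).

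**Figure D5:**
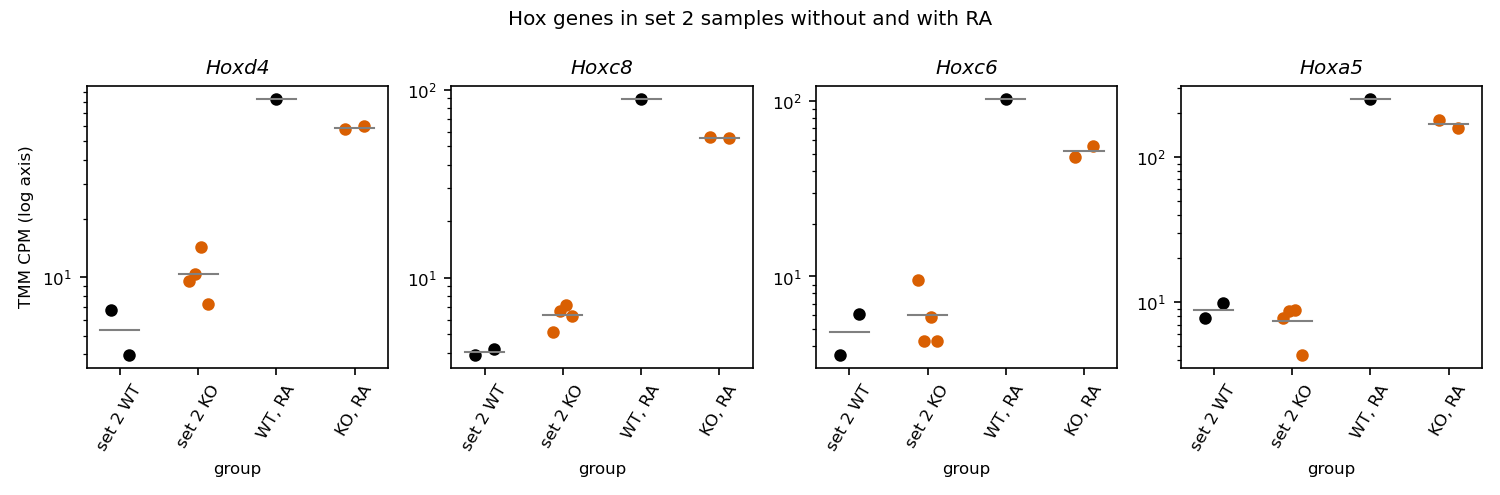
TMM-scaled CPM (log axis) of Hoxd4, Hoxc8, Hoxc6 and Hoxa5 in the set 2 samples; points are samples (WT black, KO orange) and lines are group means. Hoxd4 and Hoxc8 are higher in KO than in WT without RA and lower after RA.

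In untreated cells of both sets, fitted together with set as a covariate, 9 members passed the filter and Hoxd4 alone was called, higher in KO (log2 1.16 ± 0.36, adjusted p = 0.0253, edgeR), where 10.4% of 11515 genes were called higher. In set 1 Hoxd4 was at 0 CPM in both WT samples and at 2.21, 2.77, 0.823 and 0 CPM in KO, and in set 2 at the levels given above, with no overlap between genotypes in set 2. The share of all genes without such overlap was not counted. By library the Hoxd4 level moved with the library subsets, at 2.81 to 2.90 CPM in WT and 5.75 to 8.71 CPM in KO of subset A, and at 7.50 to 9.99 CPM in WT and 9.54 to 16.0 CPM in KO of subset B. With set 2 libraries of subset A alone its adjusted p was 0.105 (log2 1.31) and with subset B alone 0.268 (0.60), both in edgeR. Each of these fits held only 2 WT and 3 KO libraries, and the direction held in both. The call was lost without 2b (adjusted p = 0.277, edgeR), without 2e (0.0913) and with each library as its own sample (0.0554). The other 8 members were not called, at log2 -0.18 (Hoxa5) to 0.82 (Hoxc8), and 8 of 9 lay above 0, as did 47.9% of all genes. Hoxc9 (0.76 ± 0.31, adjusted p = 0.0868, edgeR) was called without 2f (0.0494). Marker sums moved with genotype too: 5 of 16 tested fibroblast markers and 10 of 12 tested markers of extraembryonic endoderm were called higher in KO, by edgeR. Of 12 ESC markers 9 were called lower and 1, Dppa3, higher (log2 1.02). Their part in the Hoxd4 difference was not tested.

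Between KH2 samples labelled with and without 24 h of Dox, 0 of 6 tested members were called in edgeR, where 1.8% of 12723 genes were called, with 1 member at an unadjusted p under 0.05. That was Hoxb9, at 4.68 and 5.04 CPM without and 2.43 and 2.62 CPM with Dox (log2 -0.94 ± 0.44, adjusted p = 0.294, edgeR). Its samples did not overlap. Hoxb8, not tested and chosen after its values were seen, went the other way without overlap. It went from 0.639 and 0.219 CPM to 1.29 and 2.22 CPM with Dox, on 3 and 1 counts against 8 and 11. The share of all genes without overlap between such groups of 2 samples was not counted. Neither separation is read as a change with Dox. The fibroblast marker sum moved too, from 1792 and 1926 CPM to 1270 and 1483 CPM with Dox, with 3 of 19 tested markers called lower, and its part was not tested. The DESeq2 Wald test called 0 too. Hoxc13 was at the levels given above (log2 -0.03 ± 0.33). The other 33 members had too few counts to test. Set itself was at 954 and 1016 CPM without and 1119 and 1263 CPM with Dox, not called (log2 0.28 ± 0.10, adjusted p = 0.175, edgeR). Whether 3′ tags of the HA-tagged SETa were counted under Set was not tested, so its induction cannot be read from these values.

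Other genes inside the clusters, mostly noncoding, had few counts. Of 46 in the cluster spans, 3 of them annotated as protein coding, 24 had 0 counts in all samples and 11 were tested. After RA 9 were called higher in WT and 10 in KO by edgeR, against 24.8% and 28.3% of all genes, and 1 lower in each, Gm11539, a pseudogene in HoxB. Only 3 of the 11 pass the filter untreated, of which 1 was called higher and 1 lower in WT and 2 higher and 1 lower in KO, and the other 8 were tested only through their RA samples. The counting command in the file headers sets no strand option, so reads of a gene and of its antisense partner cannot be told apart. Hotairm1, a noncoding RNA of the HoxA cluster, went from 2.02 ± 0.35 CPM (SD, n = 2) to 22.0 CPM in WT and from 1.89 ± 0.41 CPM (n = 4) to 24.0 ± 1.8 CPM (n = 2) in KO (log2 3.49 and 3.56). Haglr, a noncoding RNA of the HoxD cluster, rose by log2 4.54 and 3.31, on 7 untreated WT counts. Both were higher in all RA samples. These rises and this separation are descriptions only, since most of the tested genes here passed the filter only through their RA samples. The share of all genes that separate so was not counted. Halr1, a noncoding RNA near the HoxA cluster, went the other way, from 73.1 ± 9.3 CPM (n = 2) to 12.3 CPM in WT and from 22.9 ± 7.8 CPM (n = 4) to 7.01 ± 2.0 CPM (n = 2) in KO (log2 -2.60 and -1.71). It was also lower in untreated KO than WT, at 61.2 and 85.3 CPM against 6.58 to 12.2 CPM in set 1 and 66.5 and 79.7 CPM against 16.9 to 34.0 CPM in set 2 (log2 -2.20 ± 0.25, adjusted p = 1.52e-05, edgeR). The cluster neighbours Skap2 and Mtx2 rose by log2 0.73 and 0.90 in WT and by 0.99 and 0.90 in KO. In the list of 19 other cluster transcripts and neighbours, 6 of 13 tested rose and 3 fell in WT, and 6 rose and 5 fell in KO.

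Partners and regulators of Hox genes were read from lists that were chosen with earlier results of these data known. Of the TALE homeodomain cofactors, which bind DNA with Hox proteins, 7 of 9 tested rose after RA in WT and 6 in KO, and 0 fell, where 24.8% of all genes rose in WT and 28.3% in KO. Meis1 rose from 12.1 ± 1.6 CPM (SD, n = 2) to 132 CPM in WT and from 9.94 ± 2.6 CPM (n = 4) to 120.1 ± 11 CPM (n = 2) in KO. Meis2 rose by log2 3.34 and 2.90 and Meis3 by 1.70 and 1.81. Meis2 was also lower with Dox (log2 -0.89, adjusted p = 0.0484, edgeR). Of 20 tested RA receptors, RA enzymes and early RA targets, 9 rose and 2 fell in WT, and 13 rose and 4 fell in KO, beside the same shares of all genes (22.5% and 26.8% fell). The RA-degrading enzyme Cyp26b1 rose by log2 4.36 and 4.27, the RA-making enzyme Rdh10 by 3.05 and 2.41 and the receptor corepressor Nrip1 by 2.65 and 2.53. Cyp26a1, whose DR5 repeat is printed above, went from 23.6 ± 3.7 CPM to 115 CPM in WT and from 28.4 ± 5.0 CPM to 219.6 ± 15 CPM in KO, and was higher in KO than WT after RA (log2 0.91, adjusted p = 0.0143, edgeR). Rarb, the receptor gene with the other DR5 repeat, was at most 2.32 CPM in every sample and was called in KO only (log2 2.93, adjusted p = 0.0067).

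The Cdx and Evx genes, which act on the posterior clusters, were not called higher after RA. Of 3 tested, 0 were called in WT and Evx1, the neighbour of HoxA, fell by 3.20 on the log2 scale in KO, from 4.30 to 29.5 CPM down to 1.20 and 2.53 CPM. Evx1 was higher in untreated KO (log2 1.73, adjusted p = 0.0143, edgeR). Cdx1 was at most 4.06 CPM in set 2 without a call, and Cdx2 stood at 0.661 to 6.81 CPM in untreated set 2 KO against 0 and 0.521 CPM in WT. Among 8 hindbrain regulators 3 rose and 3 fell in both genotypes. The RA-induced nuclear receptors Nr2f1 and Nr2f2 rose by log2 3.71 and 3.49 in WT and 2.57 and 2.68 in KO, and Nr2f1 had a smaller change in KO (log2 difference -1.14, adjusted p = 0.0232, edgeR). Otx2, a forebrain and midbrain factor, and Sall4, a stem cell factor, fell by 2.56 and 2.55 on the log2 scale in WT and by 2.54 and 1.81 in KO.

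Chromatin regulators of the clusters shifted as well. Of 12 Polycomb repressive complex 2 genes 2 rose and 8 fell after RA in WT, and 1 rose and 8 fell in KO. Jarid2 fell by 2.10 on the log2 scale in WT and 1.52 in KO, Epop by 2.60 and 1.62, Mtf2 by 1.37 and 1.06 and Eed, a core subunit, by 1.55 and 1.05. In untreated KO 5 of the 12 were lower and 1 higher than in WT (8.63% and 10.4% of all genes), among them Ezh2, the methyltransferase (log2 -0.64, adjusted p = 3.94e-05, edgeR). Of 19 Polycomb repressive complex 1 genes 8 rose and 6 fell in WT and 9 rose and 4 fell in KO, with Phc2 up by log2 2.21 and 1.69 and Phc1 down by 2.55 and 2.44 (log2 -2.55 and -2.44). Rnf2 and Bmi1 rose by log2 0.63 and 2.47 in WT and by 0.92 and 1.65 in KO. Of 13 genes of the MLL/COMPASS methyltransferases and H3K27 demethylases 1 rose and 7 fell in WT, and 1 rose and 6 fell in KO. The riser was Kdm6b, an H3K27 demethylase (log2 1.34 and 1.22), and Dpy30, Wdr5 and Psip1 fell by 1.83, 1.41 and 1.06 in WT and by 1.53, 1.11 and 0.94 in KO. Beside these counts, 24.8% of genes were called higher and 22.5% lower in WT, and 28.3% and 26.8% in KO. Between KO and WT after RA, 0 of 12, 1 of 19 and 0 of 13 genes of these lists were called.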

How the data were processed

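For 23 libraries the authors deposited whole-number read counts of each gene. Per the file headers they come from featureCounts 1.6.0 and the GRCm38 gene models of Ensembl release 97. Its default options leave out reads that overlap several genes or map to several places. Reads were aligned with STAR 2.5.4b, per the submitters' processing notes, and libraries were made with the QuantSeq 3′ kit from 500 ng of RNA, per the labels' protocols. Libraries with the same title code were summed, which left 19 samples of 806412 to 10217040 counts. The floor of 3 counts was 0.294 to 3.72 CPM.

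All genes were tested with edgeR 4.0.16 under R 4.3.3, by its quasi-likelihood F test (TMM scaling, filterByExpr, robust dispersions), with Benjamini-Hochberg adjustment and a threshold of 0.05. Set 2 was fitted by group means, untreated R1 samples of both sets with set as a covariate, and KH2 samples on their own. Cluster and paralogue sums were described without a test. The fits were tested on simulated data with 2-fold and 4-fold changes. They recovered 42.6% of 2-fold changes for RA in WT, 60% for RA in KO, 37.4% for KO against WT after RA, 28.7% for the difference, 90.5% for untreated KO and 72.2% for Dox, with 4.12% to 7.61% of calls false.

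Members called in any comparison are given by sample. Some values, of a member and of a listed gene, are not reported here, though counts and sums include them. From each list up to 4 called genes with the smallest adjusted p for RA in KO are named, beside Set, Rarb, Cyp26a1, Cdx1, Cdx2, Meis1, Meis2, Halr1, Hotairm1 and Evx1. Members and lists were chosen with earlier results of these data known. Alternatives were DESeq2 1.42.0 size factors and Wald test, no filter, libraries as samples, a replicate block, sums per line and set, each set alone, KO1 alone and each sample left out. The library subsets were added after seeing the data. Promoters came from RefSeq (GRCm38.p6).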

Additional observations from a re-analysis of the deposited data

Results flagged for a closer look

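Hoxc13 in set 1 KO had a sample far from the others: 1c stood at 8.85 CPM and the other 3 samples at 2.47 to 2.77 CPM. Hoxc10 in set 2 KO had a low sample, 2e at 0.184 CPM, with the other 3 at 1.30 to 1.48 CPM. Both rest on few counts, and chance flags about 1 in 20 such groups of values.

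The RA change of Hoxd4 differed between genotypes by a log2 value of -1.67 in the edgeR test of the difference itself, and that of Hoxc8 by -1.36. In both the KO samples lay above WT before RA and below it after RA. Untreated levels of both moved with the library subsets, whose part in the difference was not tested.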

How the results depend on the processing

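RA calls of members stayed within 1.5 times the main count under each alternative, and of 927 values of single members under alternatives 871 kept direction and side of the threshold, 42 fell below it, 14 passed it and 0 reversed. These values were taken only for members called under any setting of a comparison. The 0 reversals therefore say nothing of members never called. For KO against WT after RA the count of 0 became 1 (Hoxc6) without the low-count filter and 1 with the replicate block, and 0 to 2 with each sample left out. For the RA by genotype difference the count of 2 became 0 with the DESeq2 Wald test, 0 with every library as its own sample, 1 with KO1 alone as the untreated KO, and 0 to 3 with each sample left out. For untreated KO the count of 1 became 0 with every library as its own sample, 0 with subset A, 0 with subset B, and 0 to 2 with each sample left out. Replicate numbers did not pair the samples: deviations of same-numbered samples correlated at -0.144 to 0.108, and the block changed no other call. Set 1 alone gave no value, because no member passed the filter. The cause of these changes was not tested. Set 1 rests on 21 to 51 Hox counts per sample, and WT after RA on 1 sample.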
